A study of Mus musculus with 16 samples.

Results

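The genes followed here are 38 skeletal muscle genes, which encode the contractile proteins of the sarcomere, the calcium-handling proteins of the muscle membrane, muscle enzymes and the myogenic transcription factors. They were named as a set of muscle genes with earlier results of these data known, and each was read from the probe sets that carry its symbol and no other. Of the 38 genes, 37 had probe sets, 1239 of the 303629 probe sets with a single symbol, and 19447 genes were tested in all. Mybpc1, which encodes a slow-muscle myosin-binding protein C, had no probe set under that symbol. The study hybridised total RNA from CD1 mouse embryos at E18.5 to Affymetrix exon arrays, which carry probe sets along each gene. The groups were 4 arrays each of wild type whole brain, wild type spinal cord, whole brain of embryos lacking both Nova1 and Nova2 (the Nova1/2 double knockout), and double knockout spinal cord. Each of the 16 arrays held 1 biological replicate, so the p-values below measure the spread between such replicates. Nova1 and Nova2 are neuronal RNA-binding proteins that regulate splicing. The labels do not say which exons the alleles lack, nor whether brain and cord arrays with the same number came from 1 embryo.

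Skeletal muscle contracts when myosin heads of the thick filament pull on actin of the thin filament, and the troponins and tropomyosin of the thin filament make this depend on calcium. Calcium is released by the ryanodine receptor when the voltage sensor in the transverse tubule is depolarised. MYOD, MYF5, MYF6 and myogenin are basic helix-loop-helix factors that bind E-boxes and switch on the muscle programme in myoblasts. Neither brain nor spinal cord contains skeletal muscle fibres, whereas the vertebral column around the cord of an embryo is closely covered by muscle.

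The levels below are log2(intensity + 16), the median over a gene's probe sets on 1 array. A change of 1 on this scale is a doubling for a bright gene and understates the change of a dim one. The targeted genes followed the labels. Nova1 lay between 9.98 and 10.71 on the wild type brain arrays and between 4.58 and 5.29 on the double knockout brain arrays. In cord it lay between 10.98 and 11.25 in wild type and between 5.78 and 5.96 in double knockout. Nova2 fell by 0.75 in brain and by 1.14 in cord (limma, adjusted p = 0.00367 and 1.23e-05). The mean level of 12 neuron genes lay between 11.14 and 11.30 on the brain arrays and between 10.94 and 11.23 on the cord arrays.

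Promoter sequences are shown for 4 members that stand for the contrasting patterns described below. Actc1 encodes cardiac alpha-actin, which embryonic skeletal muscle also uses, and Acta1 encodes skeletal alpha-actin. Mylpf encodes the fast skeletal regulatory light chain, and all 3 of these differed severalfold between arrays of 1 group. Myog encodes myogenin, and its level did not separate the same arrays. The 250 bases upstream of each start are given 5′ to 3′ on the gene's strand from RefSeq on GRCm38.p6. The windows are chr2:114052876-114053125 (minus strand), chr8:123894776-123895025 (minus), chr7:127211358-127211607 (plus) and chr1:134289754-134290003 (plus), in the order shown. Capitals mark E-boxes (CANNTG, of which CAGCTG is 1 form), TATAAA and the CArG box, the element bound by serum response factor.
Actc1: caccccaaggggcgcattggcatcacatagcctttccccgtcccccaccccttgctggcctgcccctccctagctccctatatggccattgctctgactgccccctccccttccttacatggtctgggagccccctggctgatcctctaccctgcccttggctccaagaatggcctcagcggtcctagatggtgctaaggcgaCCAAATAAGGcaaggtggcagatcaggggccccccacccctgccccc
Acta1: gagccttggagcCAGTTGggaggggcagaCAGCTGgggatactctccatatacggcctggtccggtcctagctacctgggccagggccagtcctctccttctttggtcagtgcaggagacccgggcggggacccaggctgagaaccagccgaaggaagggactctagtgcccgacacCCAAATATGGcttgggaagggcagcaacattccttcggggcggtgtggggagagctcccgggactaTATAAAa
Mylpf: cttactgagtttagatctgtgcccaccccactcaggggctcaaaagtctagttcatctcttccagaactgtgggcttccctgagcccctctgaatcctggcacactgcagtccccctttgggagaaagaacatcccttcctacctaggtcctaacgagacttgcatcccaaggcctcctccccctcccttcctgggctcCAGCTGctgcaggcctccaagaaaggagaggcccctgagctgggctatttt
Myog: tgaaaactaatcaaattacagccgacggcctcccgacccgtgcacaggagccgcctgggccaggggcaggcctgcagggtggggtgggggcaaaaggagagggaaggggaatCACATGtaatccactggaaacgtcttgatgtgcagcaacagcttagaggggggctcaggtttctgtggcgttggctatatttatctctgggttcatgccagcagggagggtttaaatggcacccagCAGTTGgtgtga

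The CArG box of Actc1 ends 38 bases before the start, and that of Acta1 ends 64 bases before it. Of the 38 genes, 31 matched an entry in the promoter table, with 33 windows. The form CAGCTG occurred on either strand in 15 of the 33 windows (45.5%), against 13% of all 32851 windows of that length. Any E-box, which includes CAGCTG, occurred in 75.8% of the member windows against 66.2% of all, and TATAAA in 21.2% against 12.4%. The CArG box occurred in 12.1% of the member windows (Acta1, Actc1 and both windows of Ldb3) against 1.47% of all. The MEF2 box occurred in 1 member window, that of Ttn, against 0.508% of all. These are matches of letters and do not show that a factor is bound.

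The levels in the 8 cord arrays fell into 2 sets that cut across the genotypes. Wild type cord arrays 1 and 4 and double knockout cord arrays 2 and 4 carried high levels of most members, and the other 4 cord arrays carried levels near those of brain. All 4 high arrays lay above all 4 low arrays for 26 of the 37 members, against 294 of all 19447 genes (1.51%). These 4 arrays were picked out by the members' own levels, so the count is a description. In bulk RNA of this kind, fewer muscle cells in the sample and less RNA per muscle cell cannot be told apart.

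**Figure D1:**
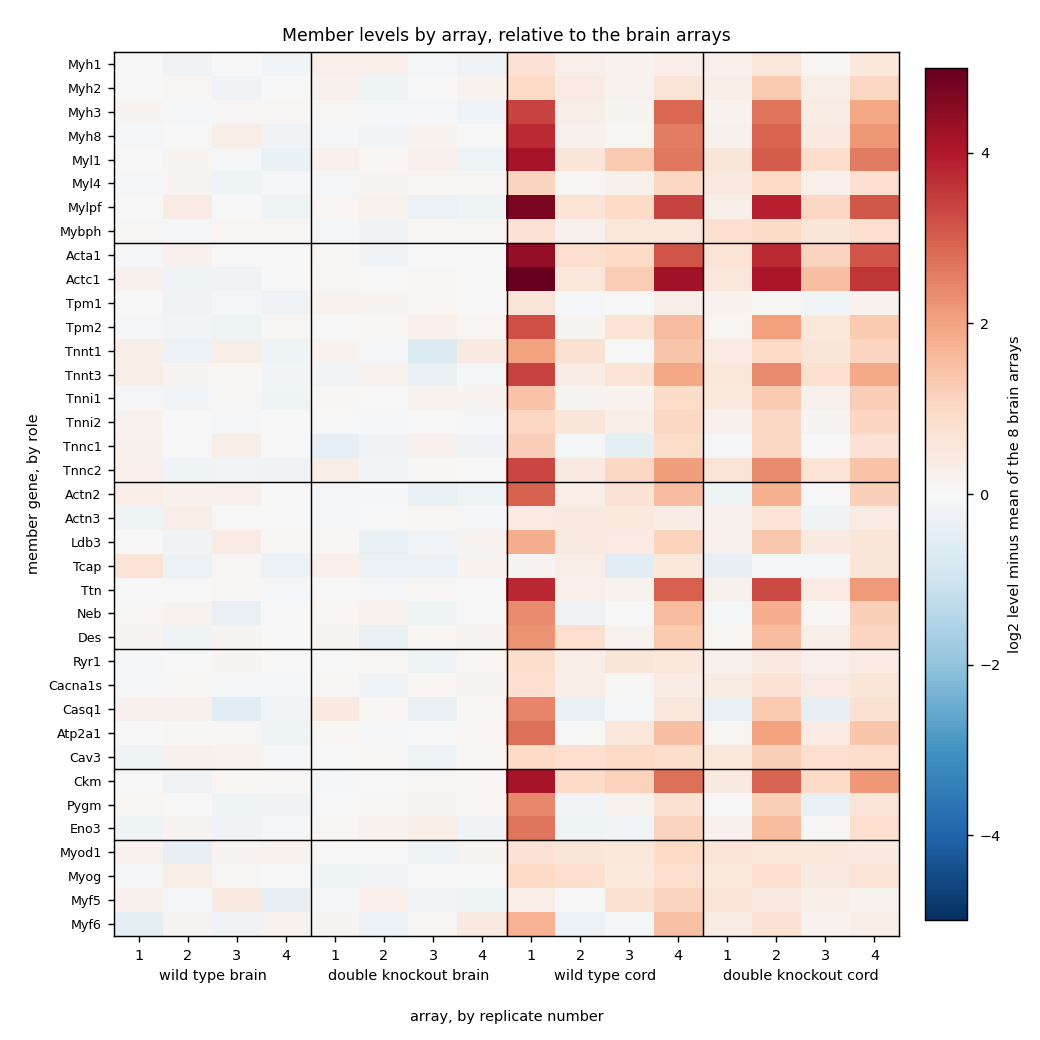
Each cell gives the log2 level of 1 member on 1 array minus the mean of that member over the 8 brain arrays, with members grouped by role from top to bottom (thick filament, thin filament, Z-disc and elastic scaffold, excitation-contraction coupling, energy metabolism, myogenic factors). Wild type cord arrays 1 and 4 and double knockout cord arrays 2 and 4 are red for most members, with Actc1 up to 5.17 above brain on wild type cord array 1. For none of the 4 myogenic factors in the bottom rows do all of these arrays lie above the other 4 cord arrays, although Myf6 comes close.

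The actins differed widely between arrays. Actc1 stood at 11.78, 7.17, 7.86 and 10.79 on wild type cord arrays 1 to 4 and at 7.18, 10.70, 8.10 and 10.17 on double knockout cord arrays 1 to 4. The brain arrays lay between 6.41 and 6.81. Every cord array lay above every brain array, and wild type array 1 exceeded wild type array 2 by far more than the genotypes differed in their means. Acta1 stood at 11.36, 7.81, 7.96 and 10.08 in wild type cord and at 7.63, 10.70, 8.05 and 10.11 in double knockout cord, with the brain arrays between 6.78 and 7.18. The same 4 arrays were high, and the 2 genotypes overlapped.

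The remaining thin filament genes followed the actins with 1 exception. Tnnt3, fast troponin T, stood at 9.83, 6.83, 7.14 and 8.40 in wild type cord and at 7.0, 8.81, 7.25 and 8.36 in double knockout cord, against 6.12 to 6.75 in brain. Tpm2, beta-tropomyosin, stood at 9.62, 6.53, 7.07 and 7.98 in wild type and at 6.50, 8.44, 6.96 and 7.71 in double knockout. Tnnc2, fast troponin C, stood at 9.42, 6.53, 7.11 and 8.17 in wild type and at 6.74, 8.44, 6.77 and 7.49 in double knockout. In each of the 3, arrays 1 and 4 of wild type and 2 and 4 of double knockout were the 4 highest. The slow isoform genes Tnnt1, Tnni1 and Tnnc1 and the fast Tnni2 gave the same division over narrower ranges, at 6.51 to 8.50 for Tnnt1 over the 8 cord arrays, 6.76 to 8.05 for Tnni1, 6.53 to 8.24 for Tnnc1 and 7.38 to 8.32 for Tnni2. Tpm1, alpha-tropomyosin, which is also made outside skeletal muscle, was the exception. Its level lay between 8.56 and 8.93 on the brain arrays and between 8.63 and 9.41 on the cord arrays, and the 4 high arrays were not separated from the others.

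**Figure D2:**
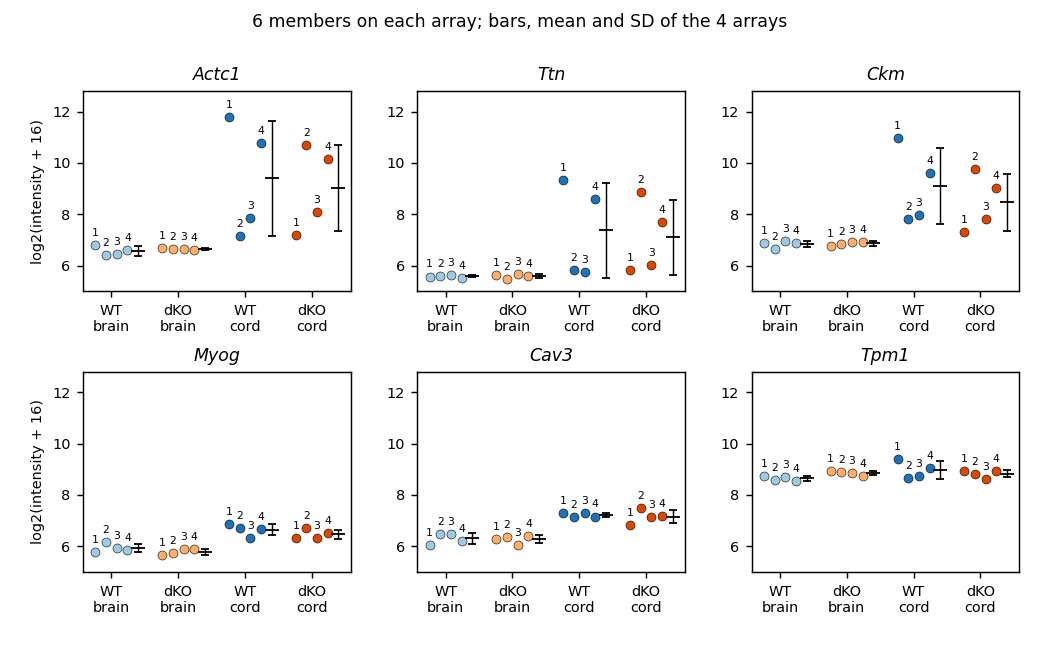
Log2(intensity + 16) of 6 members on each of the 16 arrays, labelled by replicate number, with the mean and SD of each group of 4 beside the points (WT, wild type; dKO, double knockout). Actc1, Ttn and Ckm divide each cord group into 2 high and 2 low arrays, Myog and Cav3 are higher in cord than in brain on all arrays without that division, and Tpm1 overlaps between brain and cord.

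Among the thick filament genes, the developmental myosins divided the arrays clearly. Myh3, the embryonic heavy chain, stood at 9.35, 6.27, 6.12 and 8.84 on the wild type cord arrays and at 6.14, 8.67, 6.36 and 7.92 on the double knockout cord arrays, against 5.81 to 6.11 in brain. Myh8, the perinatal heavy chain, stood at 9.82, 6.28, 6.19 and 8.66 in wild type and at 6.29, 9.01, 6.53 and 8.24 in double knockout, against 5.89 to 6.38 in brain. The 4 low cord arrays thus came within 0.5 of the brain mean for both genes. The adult fast heavy chains moved far less, with Myh1 between 5.94 and 6.54 and Myh2 between 5.99 and 7.15 over the 8 cord arrays, against 5.65 to 6.08 and 5.61 to 6.04 in brain. Myh3, Myh2, Myh1 and Myh8 lie in 1 cluster on chromosome 11 and are close paralogs, so probe sets of 1 gene may pick up RNA of another, and their separate levels are uncertain.

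The light chains rose with the developmental myosins. Mylpf stood at 10.19, 6.18, 6.49 and 8.89 in wild type cord and at 5.79, 9.39, 6.53 and 8.61 in double knockout cord, against 5.19 to 5.89 in brain. Myl1, the fast essential light chain, stood at 9.85, 6.32, 7.02 and 8.34 in wild type and at 6.31, 8.73, 6.57 and 8.29 in double knockout, against 5.35 to 5.93 in brain. Among the cord arrays, both were lowest on double knockout array 1 and highest on wild type array 1. Myl4, an embryonic and atrial light chain, gave a narrower spread of 6.46 to 7.52 in cord. Mybph, myosin-binding protein H, was the 1 thick filament gene that did not follow the 4 arrays. It stood at 7.30, 6.77, 7.12 and 7.15 in wild type cord and at 7.38, 7.51, 7.19 and 7.38 in double knockout cord, against 6.38 to 6.68 in brain.

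The giant proteins gave the same picture over many probe sets. Ttn encodes titin, the elastic filament that spans the sarcomere, and has 345 probe sets here. Its level was 9.34, 5.84, 5.75 and 8.58 on the wild type cord arrays and 5.82, 8.88, 6.01 and 7.72 on the double knockout cord arrays, against 5.48 to 5.66 in brain. On wild type cord arrays 1 to 4, 341, 135, 138 and 336 of the 345 probe sets exceeded all 8 brain arrays. On double knockout cord arrays 1 to 4 the numbers were 150, 337, 180 and 332. The high levels on the 4 arrays therefore ran along nearly all the probe sets of the gene. Neb, nebulin, which lies along the thin filament, stood at 8.47, 5.92, 6.12 and 7.69 in wild type cord and at 6.02, 7.93, 6.20 and 7.27 in double knockout cord. Of its 167 probe sets, 165, 34, 40 and 159 in wild type and 31, 160, 47 and 149 in double knockout exceeded all brain arrays.

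**Figure D3:**
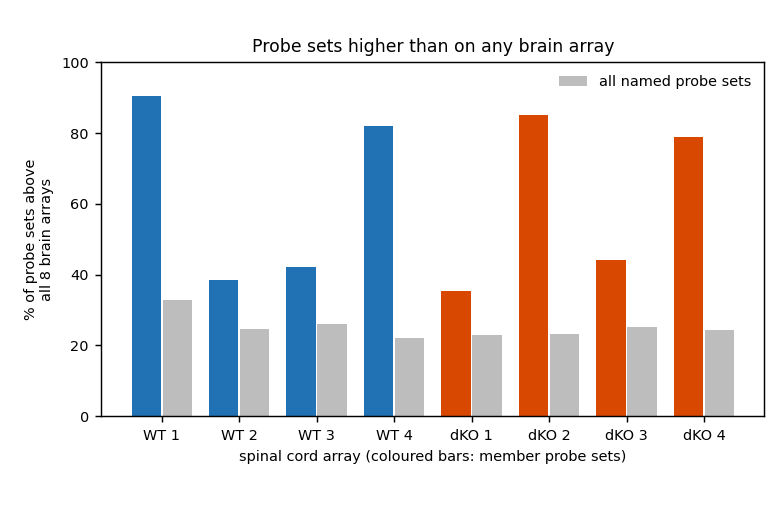
Percentage of probe sets that exceeded all 8 brain arrays, for each spinal cord array, over the 1239 member probe sets (blue, wild type; orange, double knockout) and over all named probe sets (grey). The member bars reach 90.4% and 82.0% on wild type arrays 1 and 4 and 85.2% and 78.9% on double knockout arrays 2 and 4, and 35.4% to 44.2% on the other 4, while the grey bars lie between 22.1% and 32.8%.

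Over all 1239 member probe sets, the share above all brain arrays was 90.4% and 82.0% on the high wild type arrays and 85.2% and 78.9% on the high double knockout arrays. On the other 4 cord arrays it was 38.6%, 42.2%, 35.4% and 44.2%. Over all named probe sets the share ranged from 22.1% to 32.8%. The low arrays thus still carried more member probe sets above brain than the arrays' own share over all probe sets.

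The Z-disc and intermediate filament genes were divided too. Actn2, the muscle alpha-actinin of the Z-disc, stood at 9.51, 6.89, 7.27 and 8.10 in wild type cord and at 6.34, 8.35, 6.59 and 7.75 in double knockout cord. Des, desmin, stood at 8.39, 7.01, 6.34 and 7.45 in wild type and at 6.22, 7.76, 6.46 and 7.24 in double knockout. Ldb3, a Z-disc protein of the PDZ and LIM family, lay between 6.48 and 8.11. The 4 high arrays were the 4 highest for each of these. Actn3, the fast-fibre actinin, lay between 6.27 and 7.14 on the cord arrays and Tcap, the titin cap, between 5.35 and 6.53, and neither followed the 4 arrays.

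Calcium-handling genes were split. Atp2a1, the fast calcium pump of the sarcoplasmic reticulum, stood at 8.92, 6.13, 6.72 and 7.65 in wild type cord and at 6.25, 8.17, 6.57 and 7.55 in double knockout cord. Casq1, calsequestrin, which buffers the stored calcium, stood at 8.89, 6.05, 6.36 and 7.01 in wild type and at 6.07, 7.73, 6.03 and 7.20 in double knockout. These 2 followed the 4 arrays, whereas Ryr1, Cacna1s and Cav3 did not. Cacna1s missed narrowly, with a gap of -0.04 between its lowest high array and its highest low array. Ryr1, the calcium release channel, lay between 7.01 and 7.69 on the cord arrays and between 6.56 and 6.94 on the brain arrays. Cacna1s, the voltage sensor, lay between 5.94 and 6.65 in cord and between 5.70 and 6.01 in brain. Cav3, the muscle caveolin, stood at 7.30, 7.14, 7.30 and 7.16 in wild type cord and at 6.84, 7.48, 7.13 and 7.18 in double knockout cord, above all 8 brain arrays, which lay between 6.04 and 6.49.

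The enzymes followed the sarcomere genes. Ckm, muscle creatine kinase, which regenerates ATP, stood at 10.97, 7.82, 7.99 and 9.59 in wild type cord and at 7.31, 9.75, 7.80 and 9.02 in double knockout cord, against 6.66 to 6.95 in brain. Eno3, the muscle enolase, stood at 10.39, 7.51, 7.57 and 8.84 in wild type and at 7.91, 9.31, 7.78 and 8.56 in double knockout. Pygm, muscle glycogen phosphorylase, stood at 9.72, 7.15, 7.49 and 8.08 in wild type and at 7.31, 8.48, 6.95 and 7.95 in double knockout. All 8 cord arrays exceeded all brain arrays for Ckm, whereas for Eno3 and Pygm the low cord arrays lay within or close to the brain range, at 7.48 to 8.01 for Eno3 and 7.09 to 7.44 for Pygm.

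For none of the 4 myogenic factors did all 4 high arrays lie above the other 4. Myog stood at 6.86, 6.70, 6.34 and 6.69 in wild type cord and at 6.34, 6.70, 6.33 and 6.53 in double knockout cord, above all brain arrays, which lay between 5.66 and 6.17. Myod1 stood at 7.03, 6.93, 6.88 and 7.32 in wild type cord and at 6.96, 6.87, 6.87 and 6.77 in double knockout cord, again above all brain arrays, which lay between 5.93 and 6.51. On both genes the high and low arrays overlapped. Myf5 lay between 6.43 and 7.50 and Myf6 between 5.17 and 7.23 on the cord arrays. Myf6 was highest on wild type arrays 1 and 4, at 7.23 and 6.95, and stood at 6.20 and 5.77 on double knockout arrays 2 and 4. Its highest low array was double knockout array 1, at 5.83. Myf6 thus missed the division narrowly, with a gap of -0.06 between its lowest high and highest low array. Myh1, which counts as divided, had a gap of 0.07. These genes have 4 to 7 probe sets each, fewer than most members.

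The order among the 4 high arrays was also shared. For the 26 divided members, wild type cord array 1 was the highest of the 4 in 24 members, and double knockout cord array 2 was the second in 21. Wild type cord array 4 was the third in 16 and double knockout cord array 4 the lowest in 19. The median lead of the members over the mean of the 8 brain arrays was 2.00 on wild type array 1, 1.32 on double knockout array 2, 1.13 on wild type array 4 and 1.03 on double knockout array 4. On the low arrays it was 0.33 and 0.29 in wild type and 0.27 and 0.38 in double knockout. The median lead over all genes lay between -0.12 and 0.10 on the 8 arrays. Wild type cord array 1 was the highest of the 8 cord arrays for 29 of the 37 members, but it was also the highest for 37.4% of all genes.

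The spread within a group put the members apart from other genes in cord and not in brain. The SD of the members had a median of 0.86 over wild type cord and of 0.55 over double knockout cord, against 0.203 and 0.138 over all genes. The brain groups had 0.162 (wild type) and 0.154 (double knockout), against 0.173 and 0.148. Of the 37 members, 26 in wild type cord and 25 in double knockout cord had an SD above the 95th percentile of all genes.

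Genes known from the same cells were read from lists of companion genes that hold no member. Over all genes tested, 1.51% had all 4 high arrays above the other 4. Of 44 further sarcomere and muscle fibre genes, 18 had all 4 high arrays above the other 4, among them Myoz1, a Z-disc calsarcin, at 8.53, 5.65, 5.36 and 7.01 in wild type cord and 5.73, 6.92, 5.88 and 6.76 in double knockout cord. Of 18 genes of excitation-contraction coupling, 4 did so (Cacng1, Trdn, Casq2 and Sln), and Sln, sarcolipin, stood at 8.59, 5.67, 6.04 and 7.76 in wild type and at 5.77, 7.82, 5.97 and 7.58 in double knockout. The myogenic regulators outside the members gave 0 of 21. Of 11 genes on the muscle side of the neuromuscular junction, 1 did so, Utrn.

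Markers of other tissues around the cord were read in the same way. Of 17 fibroblast and meninges genes, 6 had the 4 arrays on top (Col5a1, Col6a1, Lum, Postn, Fbn1 and Thbs2). That share of 35.3% stood above the 22.2% of the excitation-contraction list and the 1.51% of all genes, so the division was not particular to muscle genes. Postn, periostin of connective tissue, stood at 8.17, 7.24, 7.69 and 8.42 in wild type cord and at 7.45, 9.20, 7.33 and 9.09 in double knockout cord. For Postn the double knockout arrays 2 and 4 were the highest, whereas for most members wild type array 1 was. The mean level of the fibroblast list was 7.81, 7.62, 7.84 and 7.93 in wild type cord and 7.62, 8.26, 7.47 and 8.26 in double knockout cord, against 7.74 to 8.0 in brain. The cartilage and bone list gave 0 of 19, the Schwann cell and dorsal root ganglion list 0 of 12, the erythroid list 0 of 5 and the neuron list 0 of 12. The mean level of the cartilage and bone list still differed between cord arrays. It was 6.63, 6.81, 6.81 and 7.05 in wild type cord and 6.66, 7.29, 6.68 and 6.67 in double knockout cord. Double knockout array 2 and wild type array 4 were thus the highest, and wild type array 1 the lowest. The cardiac list gave 1 of 14 (Tnnt2) and the smooth muscle list 1 of 10 (Acta2). The mean of the smooth muscle list was 6.80 to 6.85 on the 4 high arrays and 6.50 to 6.72 on the other 4, against 6.26 to 6.52 in brain. Its defining gene Myh11 lay between 6.29 and 6.68 on the cord arrays, with the 4 high arrays not set apart. All of these lay above the brain arrays, at 5.83 to 6.23. The cardiac gene Nppa lay between 6.0 and 6.69 on the cord arrays and between 6.09 and 6.72 on the brain arrays. Myh6 lay between 5.94 and 6.42 in cord, against 5.59 to 6.03 in brain. Myl7 lay between 5.52 and 6.53 in cord, against 5.35 to 5.97 in brain. None of these cardiac genes set the 4 high arrays apart. What part muscle or connective tissue beside the cord plays in the difference between arrays was not tested.

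**Figure D4:**
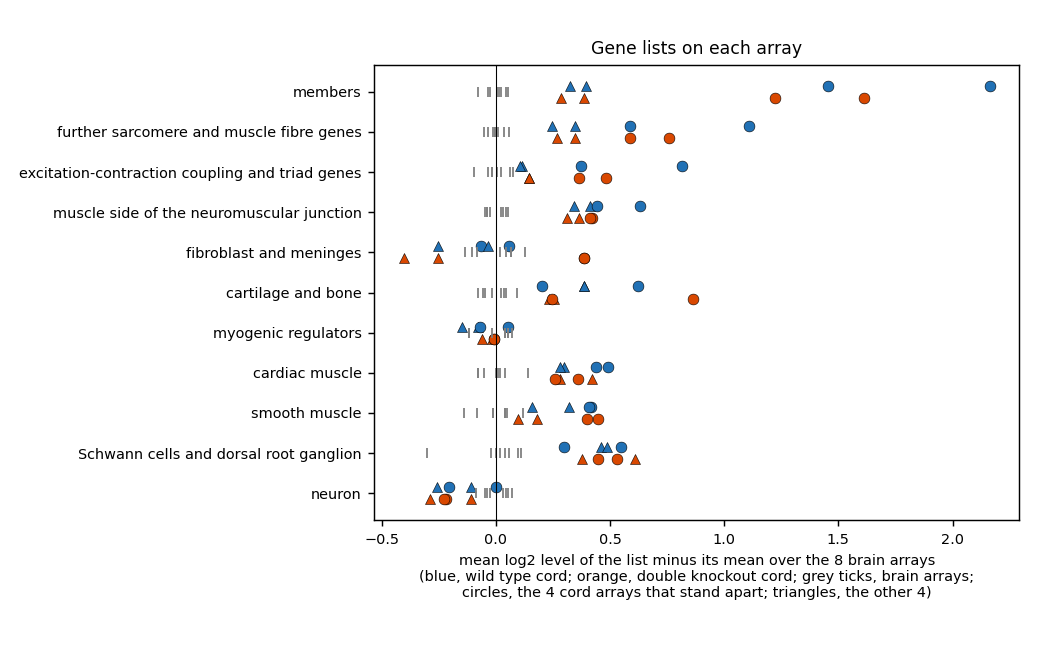
Mean log2 level of each gene list on each array minus the mean of that list over the 8 brain arrays (grey ticks), for wild type cord (blue) and double knockout cord (orange). Circles mark wild type arrays 1 and 4 and double knockout arrays 2 and 4, and triangles the other 4 cord arrays. All circles lie to the right of all triangles for the members and the further sarcomere, excitation-contraction and smooth muscle lists, and not for the cardiac, cartilage, myogenic regulator, Schwann cell or neuron lists.

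Outside all lists, the genes whose level over the 8 cord arrays was most like the mean of the members were taken by the correlation of deviations from the genotype means, as a description. The first was 8030451F13Rik, an older symbol that the RefSeq gene table gives for Mybpc1, the member without probe sets of its own name. Its 32 probe sets gave 9.66, 6.23, 6.52 and 8.39 in wild type cord and 6.39, 9.11, 6.43 and 8.20 in double knockout cord, against 5.52 to 6.32 in brain. It was high on the same 4 arrays as 7 of the 8 thick filament genes among the members, all but Mybph. The next were Fsd2, at 5.67 to 6.79 over the 8 arrays, Slc38a4, an amino acid transporter gene, at 6.25 to 7.60, and Capn6, a calpain family gene, at 5.94 to 7.69. The 8 arrays of such a pattern fall into 2 sets, so no correlation is given.

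Cord exceeded brain for most members in both genotypes. In wild type, 29 of the 37 members were higher in cord and none was lower, against 48.9% of all genes called either way and 21.4% called higher (limma, Benjamini-Hochberg adjusted p under 0.05). All 37 changes were above 0, and their median was 0.88, against 0.002 over all genes. In double knockout, 19 of 37 were higher and none was lower, against 55.9% of all genes called either way and 22.4% called higher. The median there was 0.73, against -0.057 over all genes.

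By role, the wild type calls covered 8 of 8 thick filament genes, 8 of 10 thin filament genes, 5 of 7 scaffold genes, 4 of 5 calcium-handling genes, 1 of 3 enzymes and 3 of 4 myogenic factors. Actc1 was 2.83 ± 0.80 (SE) higher in wild type cord, a 7.12-fold change on this scale, at adjusted p = 0.00796 by limma. Mylpf was 2.39 ± 0.75 higher (adjusted p = 0.0140, limma) and Ckm 2.25 ± 0.54 higher (adjusted p = 0.00267, limma). The smallest adjusted p in wild type belonged to Cav3, which was 0.92 ± 0.13 higher in wild type (5.37e-05, limma) and 0.89 ± 0.13 higher in double knockout (5.81e-05). Myog was 0.72 ± 0.12 and 0.68 ± 0.12 higher (0.000232 and 0.000273), and Myod1 0.70 ± 0.13 and 0.56 ± 0.13 higher (0.000487 and 0.0019). The errors of Actc1, Mylpf and Ckm, which divided the cord arrays, were thus several times those of Cav3, Myog and Myod1, which did not. Not called in wild type were Tpm1, Tnnc1, Tcap, Neb, Casq1, Pygm, Eno3 and Myf6, with changes from 0.07 for Tcap to 0.98 for Neb.

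Many members are dim in brain, and dim genes as a class were higher in cord. Only 9 and 8 of the 37 members had a wild type and a double knockout brain mean above 6.73, the median of all probe sets, against 31 in each cord group. Among genes that are no members and whose mean lay below that level, 37.2% were called higher in wild type cord, with a median change of 0.27, against 11.9% of the brighter genes. In double knockout cord 44% of these dim genes were called higher, with a median change of 0.31, against 42.1% of the 19 members below that level. The 18 members above it gave 61.1%, against 9.55% of the brighter genes. In wild type the members gave 78.9% below that level and 77.8% above it. The wild type changes of 0.44 for Myh1, 0.48 for Mybph and 0.41 for Cacna1s stand beside that median, and what part a shift of dim signals plays in them was not tested. Quantile normalization between arrays, which gives all arrays 1 distribution, left 9 members called in wild type and 4 in double knockout. It moved the median of all genes to -0.165 and -0.234 and the share of calls that were higher in cord. In wild type that share went from 43.8% to 16.5%, and in double knockout from 40.1% to 11.1%. Acta1, Actc1, Cav3, Ckm, Myl1, Mylpf, Myog and Tnnc2 were still called higher in wild type, and Tpm1 joined them. In double knockout Acta1, Actc1, Cav3 and Mybph were still called, while Ryr1 turned from 0.34 to -0.06. Cav3, Myog and Myod1 are dim in brain too, with means of 6.29, 5.87 and 6.33 over the brain arrays. After quantile normalization Myod1 was not called in wild type or double knockout (adjusted p = 0.0765 and 0.521, limma). Myog was not called in double knockout (adjusted p = 0.0968, limma).

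On the 4 low cord arrays alone, some members still lay above brain. Without the 4 high arrays, a choice made after their levels were seen, 13 members were higher and 1, Tnnc1, was lower in wild type cord than in brain, and 14 were higher in double knockout cord (limma, adjusted p under 0.05). Of all 19447 genes, 7578 were called in this wild type comparison, 39.9% of them higher in cord. In double knockout 8907 were called, 38% of them higher. Leaving out arrays by the members' own levels also narrows the members' spread, so the member calls are a description. Dim genes as a class were higher in cord, and what part that shift plays here was not tested. Among the members, Acta1 was 0.90 higher in wild type and 0.91 higher in double knockout. Ckm was 1.06 and 0.69 higher, and Cav3 0.91 and 0.71. Ttn, at 0.21 (adjusted p = 0.139, limma), and Myh8, at 0.14 (0.448), were no longer called in wild type. Without wild type cord array 1 alone, 18 members were called in wild type. Without double knockout cord array 2 or array 4, 8 and 10 were called in double knockout.

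The companion lists were read in the same comparison, in which 21.4% of all genes were called higher. In wild type, 33 of the 44 further sarcomere genes were higher in cord and 1 was lower, 9 of 11 neuromuscular junction genes were higher, and 8 of 18 excitation-contraction genes were higher and 1 lower. Of 21 myogenic regulators outside the members, 4 were higher and 5 lower. Of the lists of other tissues, 7 of 14 cardiac, 5 of 10 smooth muscle, 8 of 19 cartilage and bone and 6 of 12 Schwann cell and dorsal root ganglion genes were higher. The fibroblast list was divided, with 3 higher and 4 lower of 17, and of 12 neuron genes 2 were higher and 7 lower.

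No member was called for genotype at the gene level. In cord, 0 of 37 members were called, against 3.24% of all genes. An unadjusted p of 0.05 was passed there by 1 member, Mybph, and by 3171 of all 19447 genes (limma). In brain, 0 of 37 were called, against 0.190% of all genes. No member passed an unadjusted p of 0.05 in brain, against 886 of all genes. The difference between the cord and brain genotype changes called 0 of 37, against 0.00514% of all genes. At an unadjusted p under 0.05 this difference gave 1 member, against 1405 of all genes. The median change of the members in cord was -0.19, with 6 of 37 above 0, against -0.019 over all genes. That median depended on single arrays, being 0.19 without wild type cord array 1 and -0.50 without wild type cord array 3.

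**Figure D5:**
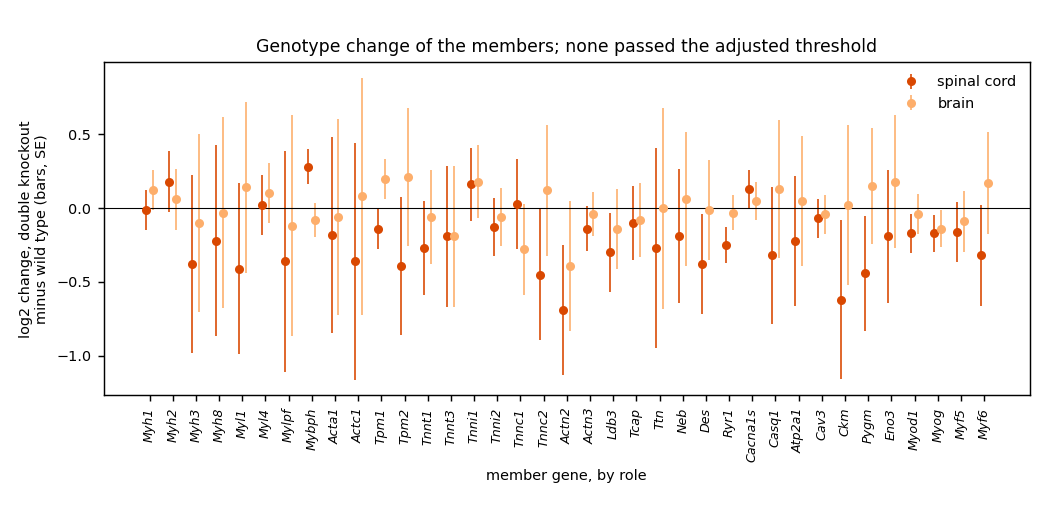
Log2 change from wild type to double knockout of each member in spinal cord (dark orange) and brain (light orange), with the standard error of the fit over all 16 arrays. Most cord values lie below 0, their bars are long for the members that divide the cord arrays, such as Actc1 with a standard error of 0.80, and none of the 37 changes passed the adjusted threshold in either tissue.

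The fit shares 1 error per gene over brain and cord, so the scatter of the cord arrays also widens the errors in brain. In cord, Actn2 gave -0.69 ± 0.44 (adjusted p = 0.477, limma), Ckm -0.62 ± 0.54 (0.627) and Ttn -0.27 ± 0.68 (0.893). Mybph gave 0.28 ± 0.12 (adjusted p = 0.228, limma) and Ryr1 -0.25 ± 0.12 (0.311). At these errors a 1.61-fold lower mean of Actn2 and a 1.54-fold lower mean of Ckm did not pass. With only probe sets above 6.73 in the gene level, Tnnt1 was called lower in double knockout cord, at -1.04 (adjusted p = 0.0457, limma), whereas over all its probe sets it gave -0.27.

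In brain, 2 members were separated by genotype without passing the test. How many of all genes were separated in this way was not counted, so the 2 are a description. Actn2, which neurons also express, stood at 6.87, 6.78, 6.75 and 6.58 in wild type and at 6.46, 6.49, 6.20 and 6.30 in double knockout, a change of -0.39 ± 0.44 (adjusted p = 1, limma). Tpm1 stood at 8.75, 8.59, 8.71 and 8.56 in wild type and at 8.93, 8.88, 8.85 and 8.75 in double knockout, a change of 0.20 ± 0.14. The highest wild type array of Tpm1 equalled the lowest double knockout array to 2 decimals. A fit on the brain arrays alone also called no member.

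Since the Nova proteins regulate splicing, single probe sets were also read relative to their gene. The exon index is the log2 level of a probe set minus the median, on the same array, of those probe sets of its gene whose mean exceeded 6.73, the floor. Of 554 member probe sets from 28 genes, none was called in cord, against 0.388% of all 193126 probe sets tested, and none in brain, against 0.150% (limma, adjusted p under 0.05). At an unadjusted p under 0.05 there were 48 in cord and 16 in brain, against 22720 and 6373 of all 193126 probe sets. The mean for the floor was taken over all 16 arrays, so member probe sets could enter through the high cord arrays alone. Ttn gave 114 of the 554 and Neb 65, with mean gene levels in wild type brain of 5.59 and 6.07. For members this dim in brain and on the low cord arrays, a lack of calls cannot show that splicing is unchanged. The positions of the probe sets were not used here, so no exon is named.

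The probe set nearest to a call in cord belonged to Tpm1, whose transcripts are known to use alternative exons. This probe set, 4745735, had a log2 level of 7.38, 7.88, 7.93 and 7.80 on the wild type brain arrays and of 8.85, 8.97, 8.99 and 8.72 on the double knockout brain arrays. All 4 double knockout arrays lay above all 4 wild type arrays. Its exon index rose from between -1.39 and -0.74 to between -0.16 and 0.03, a difference of 0.88 ± 0.24 that did not pass (adjusted p = 0.50, limma). In cord the index was 0.18, -1.31, -0.95 and -0.60 in wild type and 0.13, 0.64, 0.10 and 0.41 in double knockout, a difference of 0.99 ± 0.24 (adjusted p = 0.0995, limma). Wild type cord array 1, the array with the highest muscle levels, was the only wild type array to reach the double knockout range. Without it the difference in cord was 1.27 and passed (adjusted p = 0.00686, limma). With a stricter floor for the probe sets, at the 75th percentile of all, the probe set was called in both tissues, at 0.97 in cord (adjusted p = 0.0435, limma) and 1.35 in brain (0.00504).

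Other Tpm1 probe sets went the opposite way in brain. Probe set 4425421 had an index of 1.86, 2.20, 1.94 and 2.09 in wild type brain and of 1.32, 1.45, 1.69 and 1.39 in double knockout brain, a difference of -0.56 ± 0.13 (adjusted p = 0.258, limma). Probe set 4773326 had an index of -1.84, -1.19, -0.89 and -1.26 in wild type brain and of -2.47, -2.19, -1.75 and -1.82 in double knockout brain, a difference of -0.76 ± 0.18 (adjusted p = 0.238, limma). The first was separated by genotype in brain, and in the second wild type array 1 overlapped the double knockout arrays. With the replicate number as a block, since same-numbered brain arrays deviated together, the second passed in brain (adjusted p = 0.0416, limma). The labels do not say what the numbers share. Outside the members, Tpm3, another tropomyosin gene, fell by 0.83 in brain (adjusted p = 0.00207, limma) and was the 1 further sarcomere gene called there.

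Actn2 and Actn3 each had 1 probe set of this kind. Probe set 5339406 of Actn2 had an index of 0.07, -0.05, 0.00 and 0.20 in wild type brain and of -0.84, -0.66, -0.40 and -0.39 in double knockout brain, with no overlap (-0.63 ± 0.14, adjusted p = 0.162, limma). In cord its index overlapped between genotypes. Probe set 5247665 of Actn3 had an index of 0.09, 0.10, -0.29 and 0.00 in wild type cord and of 0.67, 0.84, 0.28 and 0.52 in double knockout cord, again with no overlap (0.60 ± 0.15, adjusted p = 0.104, limma). These probe sets were picked by their p-values from 554, and neither passed here. That of Actn3 was called in cord after quantile normalization, at 0.71 (adjusted p = 0.0355, limma). It was also called with the replicate number as a block, at 0.60 (0.0266), although same-numbered cord arrays did not deviate together.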

How the data were processed

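The authors deposited linear intensities of 625534 probe sets on 16 arrays. The submitters' processing notes name PLIER, Affymetrix Power Tools and mm8. Their versions were not given in the sources at hand. The median intensity per array ranged from 72.33 to 82.88 in brain and from 99.45 to 116.2 in cord, and the number of arrays limits the precision.

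Probe sets were named through the platform annotation: 303629 had 1 symbol, 5892 several and 316013 none. The gene level was the median over a gene's probe sets of log2(intensity + 16), for genes with at least 3 probe sets. Limma 3.58.1 (R 4.3.3) fitted 4 group means over all 16 arrays, with Benjamini-Hochberg adjustment over all genes at 0.05. The exon index was limited to probe sets whose mean exceeded a floor of 6.73 (the median probe set) in genes with 5 or more of them. The scripts were tested on simulated data. Same-numbered brain arrays deviated together (correlations of 0.122 to 0.291), although the labels name no batch. Cord arrays did not (-0.057 to -0.007).

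The members and all lists were chosen with earlier results of these data known. All members could be named. Of each companion list, up to 4 genes were eligible by adjusted p, and genes printed with the 4 high arrays were chosen after their values were seen. Alternatives were the pseudocount, probe-set floor, mean, quantile normalization, 2 groups, the replicate block and leaving out arrays.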

Additional observations from a re-analysis of the deposited data

Results flagged for a closer look

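In 4 of the 148 groups of 4 arrays examined over the 37 members, 1 array lay far from the other 3. Chance alone gives about 1 in 20 such groups. All 4 were in brain. Tnnc2 stood at 6.33 on wild type brain array 1, against 5.88 to 5.95 on the others. Myod1 stood at 5.93 on wild type brain array 2, against 6.45 to 6.51. Cacna1s stood at 5.93 on the same array, against 5.81 to 5.82. Des stood at 5.79 on double knockout brain array 2, against 6.25 to 6.29. The difference between high and low cord arrays is not of this kind, since each cord group held 2 arrays of either sort.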

How the results depend on the processing

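With 4 arrays a group, dim probe sets and a wide spread in cord, moderate genotype changes of the members could not be detected. No member was called for genotype under any alternative except Tnnt1 in cord with probe sets above the floor (1 call). Members called between cord and brain numbered 9 in wild type (8 of the 29, and Tpm1) and 4 in double knockout after quantile normalization, 18 to 33 and 8 to 26 without 1 array, and 14 in wild type (13 higher, 1 lower) without the 4 high arrays. Companion genes called for genotype in cord were 11, where 3.24% of all genes were called. Among them were 1 of the 44 further sarcomere genes (lower) and 1 of the 18 excitation-contraction genes (higher). The companion calls numbered 4 in a fit on the 2 cord groups, 5 to 9 without 1 array and 0 without the 4. For wild type cord against brain, where 48.9% of all genes were called, they were 106, 62 after quantile normalization and 68 without the 4. Member exon indices called in brain were 1 at the stricter floor, 1 with the replicate block and 0 to 1 without 1 array. In cord they were 1, 1 and 0 to 3, and also 1 after quantile normalization and 2 without the 4. The replicate block changed no gene-level genotype call of a member, and gave 31 and 21 members higher in wild type and double knockout cord. Reversed values were: Mybph in cord -0.08 with the mean over probe sets and -0.08 with those above the floor; Ryr1 in double knockout tissue -0.06 after quantile normalization; Eno3 -0.08 and Neb -0.05 in wild type cord against brain without the 4. Without 1 array, the genotype change in cord ran from -0.86 to 0.39 for Ttn, which was above 0 without wild type array 1 or 4 or double knockout array 1 or 3 (0.39, 0.13, 0.16 and 0.10), and from -1.05 to 0 for Ckm; without the 4, that of Ttn was 0.12. The cause was not tested.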
